A study of Arabidopsis thaliana with 12 samples.

Results

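The comparison described here set djc31 djc62 double mutants of Arabidopsis thaliana against the wild type Col-0, with 3 libraries each, 6 of the 12 in the series. The other 6 came from the single mutants djc31 (SALK_034886) and djc62 (SALK_050913), 3 each. The double mutant is given in the labels by its 2 gene names only, and the single mutants are each 1 insertion line. RNA came from whole plants on soil with 4 leaves, in 16 h days at 100 µmol photons per square metre and second and 21 °C and 8 h nights at 16 °C. The labels name neither a stress treatment nor the time of day at which plants were taken. All 36917 loci of the deposited table were examined. Of these, 19975 had a normalised read count of at least 10 in at least 3 libraries and were tested, and 16942 were not. Nothing says whether replicates were separate sowings, so p-values measure only how far these samples differ among themselves, which may be technical.

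DJC31 and DJC62 are co-chaperones that join a J domain to tetratricopeptide repeats. A J domain stimulates ATP hydrolysis by HSP70 chaperones, and tetratricopeptide repeats of the carboxylate clamp kind hold the C-terminal end of HSP70 or HSP90. Proteins of this kind are thought to pass clients between both chaperone systems. In plants, HSP90 clients include hormone receptors, immune receptors and regulators of development.

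Values are normalised read counts, by library or as mean ± SD (n = 3); adjusted p-values come from limma with Benjamini-Hochberg adjustment over all loci tested. "Rose" and "fell" mean an adjusted p under 0.05 against wild type. The 12 libraries held 13.6 to 31.08 M reads. Across loci, wild-type libraries correlated with each other at 0.971 to 0.978, double-mutant libraries at 0.983 to 0.986, and the 2 kinds with each other at 0.921 to 0.931. In the double mutant 2748 loci (13.8% of those tested) rose and 3091 (15.5%) fell, of which 1132 (5.67%) and 744 (3.72%) changed over 2-fold. The median log2 change over all loci was 0.02. All double-mutant libraries lay above all wild-type libraries at 24.9% of loci tested, and below them at 24.0%. Lack of overlap between the groups, given for single genes below, was therefore common. Scaled by total reads instead, the median moved to 0.29, and 5810 loci rose and 1431 fell, so that 80.2% of calls were upward instead of 47.1%. The median changed sign under that scaling in 9 of 44 gene lists (abscisic acid, clock, cell wall, cytosolic HSP70 and HSP90, flowering, heat, iron, nitrogen and proton pumps), for which counts alone are given below. Where that scaling moved a list's count of genes that rose or fell by over 1.5 times, both of its counts follow the first ones. At 43 loci (0.116% of the table) wild type had at most 3 reads while each double-mutant library had a value of at least 50, and at 5 loci (0.0135%) the reverse held.

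Both targeted transcripts were low in the double mutant. DJC31 (AT5G12430, chromosome 5) had 784, 699.7 and 697 in wild type and 39.0, 49.1 and 54.4 in the double mutant. DJC62 (AT2G41520, chromosome 2) had 525, 587 and 436 in wild type and 74.6, 93.8 and 58.6 in the double mutant. Neither gene's wild-type and double-mutant libraries overlapped. The reads that remained cannot be assigned to intact or truncated transcript, because the table gives 1 value per locus.

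**Figure D1:**
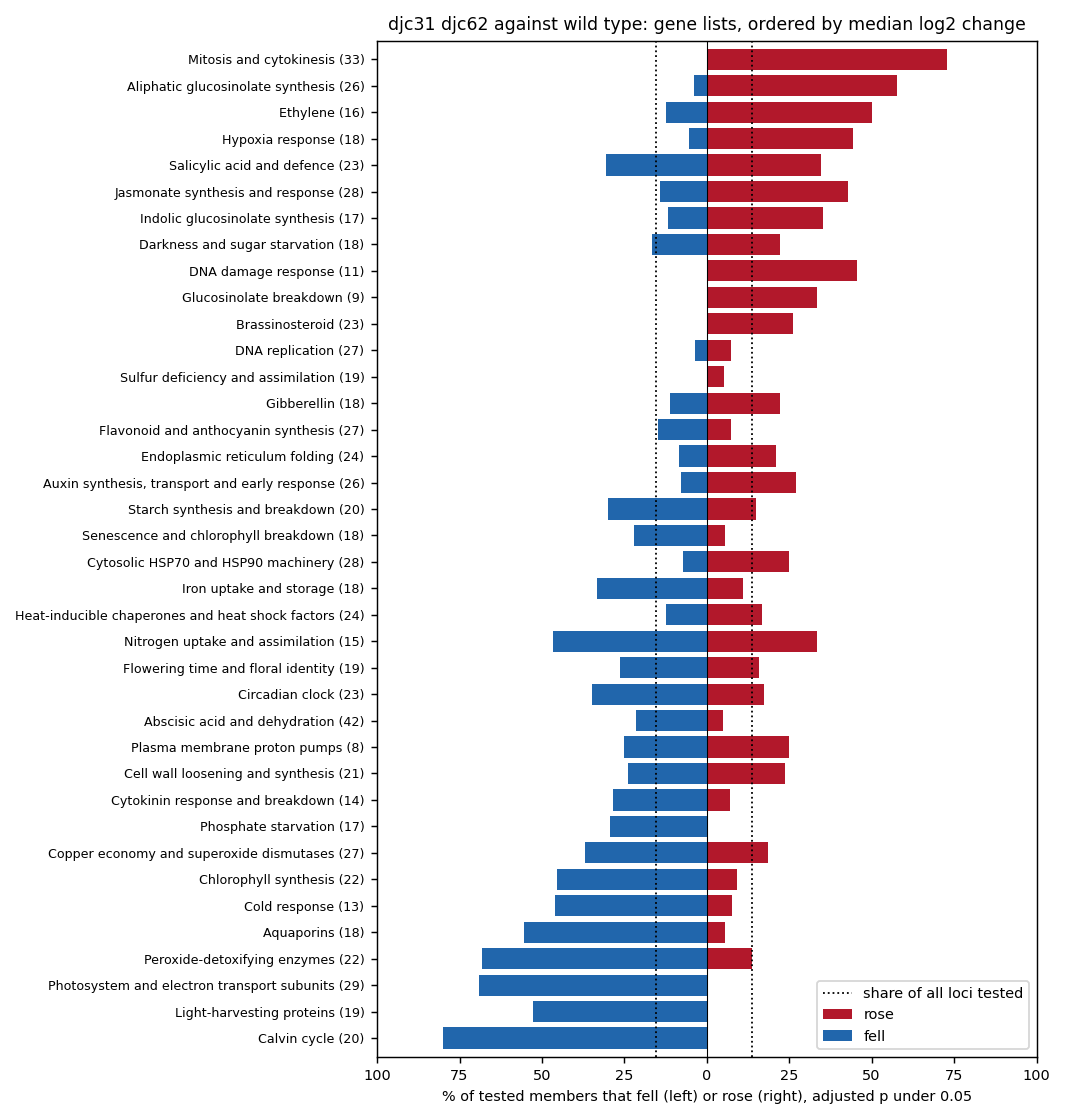
Share of the tested members of each gene list that fell (blue, left) or rose (red, right) in the double mutant against wild type; the number tested stands in brackets. Dotted lines mark the shares of all 19975 loci, 15.5% and 13.8%. Mitosis stands at one end of the order of medians and the Calvin cycle at the other.

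Transcripts of mitosis and cytokinesis rose in the double mutant, with the highest median change of the gene lists in the plot of list shares. Of this list, 24 rose and 0 fell of 33 tested (median log2 change 0.72), beside 13.8% and 15.5% of all loci. CYCB1;4 (AT2G26760), a B-type cyclin that drives entry into mitosis, had 150.4, 161 and 140.3 in wild type and 331, 315 and 374 in the double mutant (log2 change 1.17 ± 0.16 (SE), adjusted p = 3.78e-05). CDKB2;1 (AT1G76540), a plant-specific mitotic kinase, had 277, 223 and 256 in wild type and 515, 547 and 585 in the double mutant (log2 change 1.12 ± 0.16 (SE), adjusted p = 6.31e-05). In both genes every double-mutant library lay above every wild-type library. KNOLLE, the syntaxin that fuses vesicles at the cell plate, rose from 342 ± 41.7 in wild type to 650.0 ± 68.3 in the double mutant (adjusted p = 0.000304). CYCB2;4, CDC20.1, the activator of the anaphase-promoting complex, and CYCB1;1 rose as well, with log2 changes of 0.86, 0.58 and 1.28. The kinesin HINKEL, the spindle protein TPX2 and the kinase AUR1 were also among the members that rose. CENH3, the centromeric histone, and MYB3R1, a regulator of mitotic genes, did not pass the test and had log2 changes of -0.42 and -0.06.

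The single mutants did not show such levels. CYCB1;4 stood at 193 ± 16.8 in djc31 and 125 ± 8.32 in djc62. Of the 33 mitotic genes, 23 were higher and 1 lower in the double mutant than in djc31, and 26 and 0 than in djc62. Over all loci, 31.3% passed against djc31, 15.3% higher and 16.0% lower, and 19.7% against djc62, 9.38% higher and 10.4% lower. These contrasts contain no wild-type library, but share the double-mutant libraries with the comparison above. With any 1 library left out, 17 to 25 members of the list rose and none fell.

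Of DNA replication genes, 2 rose and 1 fell of 27 tested (median log2 change 0.18), or 9 and 0 scaled by total reads. The helicase subunits MCM5 and MCM7 of the replication machinery, neither of which passed, had log2 changes of -0.19 and 0.00, and the sliding clamp PCNA1 had -0.01. RNR2A, a ribonucleotide reductase subunit, fell (log2 change -0.45, adjusted p = 0.012, and 0.0573 without double mutant replicate 1). ORC6, of the origin recognition complex, rose (adjusted p = 0.0265), but not without wild type replicate 2 or 3 or double mutant replicate 1 or 3 (0.0683 to 0.0998). RNR1, the large reductase subunit, rose too (adjusted p = 0.0446), but not without any 1 library of the 2 genotypes or djc62 replicate 3 (0.0571 to 0.186). With 1 library left out, 0 to 4 replication genes rose. RNR2A also lost its call scaled by total reads. Of the 27 genes, 18 were higher and 0 lower in the double mutant than in djc31, and 4 and 1 than in djc62; djc31 itself was lower than wild type in 9 and higher in 0. Whether the 2 lists differ was not tested.

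**Figure D2:**
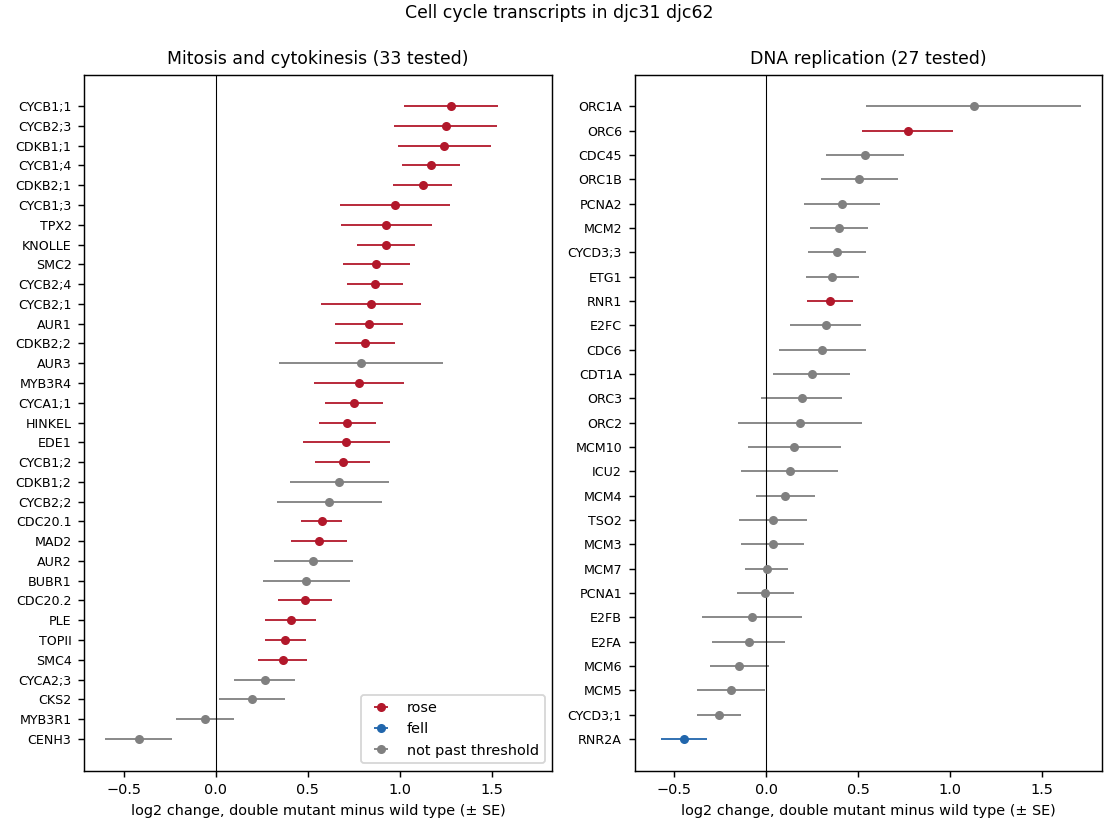
Log2 change between double mutant and wild type (points) with its standard error (bars) for each tested gene of mitosis and cytokinesis (left) and of DNA replication (right). Red points rose, blue points fell and grey points did not pass; 24 of 33 mitotic genes are red, against 2 of 27 replication genes.

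Part of the DNA damage list was also higher. Of its members, 5 rose and 0 fell of 11 tested (median log2 change 0.23), and 5 rose with any 1 library left out. GMI1 (AT5G24280), a structural-maintenance-of-chromosomes-like gene induced by double-strand breaks, had 151, 129 and 112 in wild type and 550.2, 586 and 519 in the double mutant (log2 change 2.08 ± 0.27 (SE), adjusted p = 2.68e-05). Its single-mutant levels were 66.7 ± 18.5 in djc31 and 51.3 ± 19.98 in djc62, below those of wild type. SMR7, an inhibitor of cyclin-dependent kinases, had 6.10, 12.9 and 10.4 in wild type and 52.1, 60.3 and 57.7 in the double mutant (log2 change 2.47 ± 0.56 (SE), adjusted p = 0.00318). XRI1, RAD17 and BRCA1, which act in repair and checkpoint signalling, rose with log2 changes of 0.84, 1.01 and 0.68. SOG1, the transcription factor at the head of the plant damage response, did not pass and had a log2 change of -0.11. Without the loci near the on/off loci, 3 members of the list rose. NAC044 (AT3G01600), a transcription factor that acts downstream of SOG1 to hold cells before mitosis, had 6.10, 22.5 and 6.96 in wild type and 216, 176 and 199.98 in the double mutant. Its groups did not overlap (log2 change 4.17, adjusted p = 0.000218), and it stood at 3.78 ± 3.997 in djc31 and 16.5 ± 8.08 in djc62.

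Of the shoot meristem and floral organ markers, 2 rose and 1 fell of 8 tested (median log2 change 0.07). STM (AT1G62360), which keeps meristem cells undifferentiated, had 98.6, 108 and 117 in wild type and 365, 290.2 and 312 in the double mutant (log2 change 1.57 ± 0.21 (SE), adjusted p = 3.16e-05). KNAT1 (AT4G08150), of the same KNOX family, had 143, 131 and 190.1 in wild type and 371, 377 and 274 in the double mutant (log2 change 1.14 ± 0.22 (SE), adjusted p = 0.000923). The lowest double-mutant library was above the highest wild-type library for both. By its locus identifier KNAT1 lies close to AT4G08110, which was silent in wild type. The single mutants had 98.3 ± 13.7 in djc31 and 107 ± 26.7 in djc62 of STM, and 96.4 ± 3.71 in djc31 and 108 ± 31.2 in djc62 of KNAT1; the double mutant differed from them in STM (adjusted p = 2.19e-05 against djc31 and 5.13e-05 against djc62). The member that fell was AG, a floral organ identity gene, with 18.3, 19.3 and 13.9 in wild type and 0, 1.49 and 0 in the double mutant. The stem cell markers WUS and CLV3 were listed at 0 in all wild-type and double-mutant libraries, and CLV1 did not pass (log2 change -0.07). The summed level of the meristem and floral marker list was 1407 to 1538 in wild type and 1752 to 1804 in the double mutant. In whole plants, a change in the number of cells of a type and a change in RNA per cell cannot be told apart, and the part of meristem tissue in the mitotic result was not tested.

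**Figure D3:**
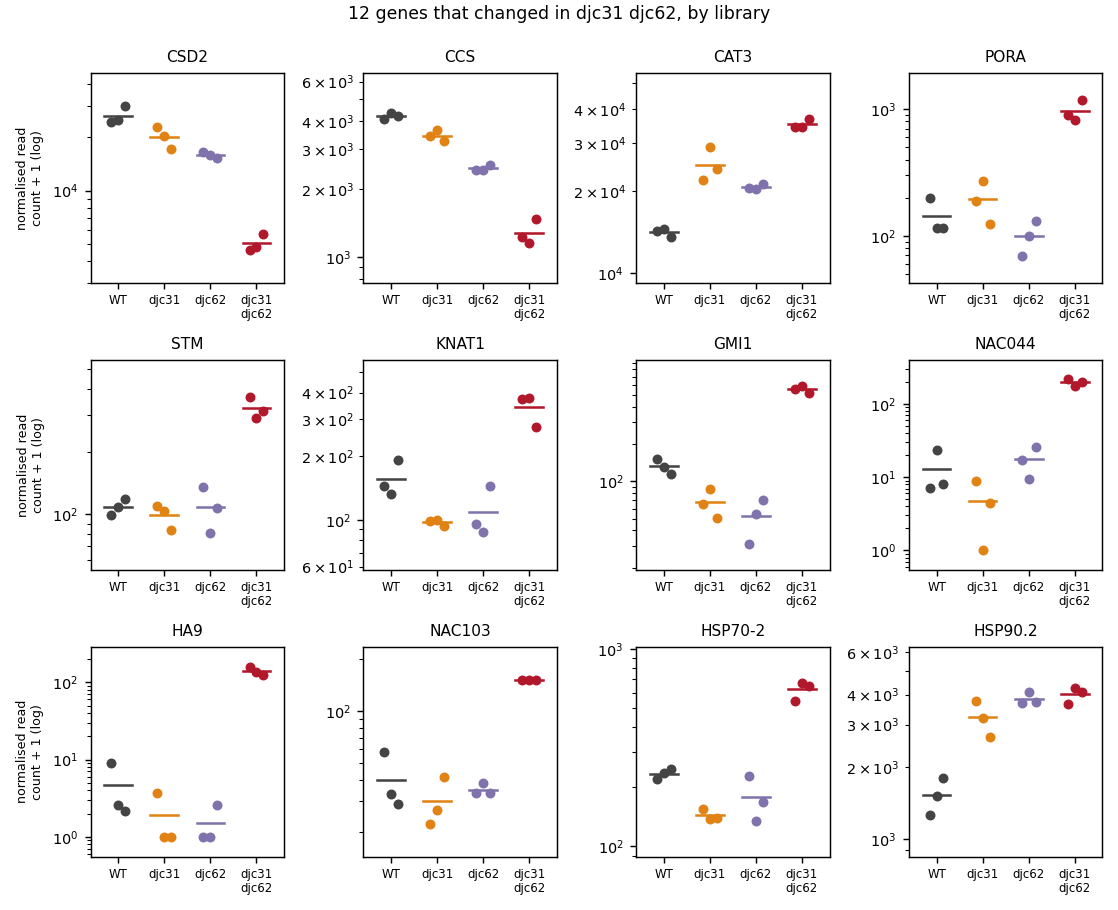
Normalised read count plus 1 (log axis) of 12 genes in each library (points) with the mean of each genotype (line). The double mutant lies below all other libraries in CSD2 and CCS and above them in the other panels, except HSP90.2, where djc62 and djc31 libraries reach into its range.

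Nucleus-encoded photosynthesis transcripts fell. Of Calvin cycle genes, 0 rose and 16 fell of 20 tested (median log2 change -0.57), of photosystem and electron transport genes 0 rose and 20 fell of 29 tested (median log2 change -0.48), or 1 and 14 scaled by total reads, and of light-harvesting genes 0 rose and 10 fell of 19 tested (median log2 change -0.53). CP12-2 (AT3G62410), a small regulator that binds phosphoribulokinase and glyceraldehyde-3-phosphate dehydrogenase, had 9164, 9358 and 10774 in wild type and 3653, 3746 and 3978 in the double mutant (log2 change -1.36 ± 0.14 (SE), adjusted p = 1.9e-06). PSAG, a photosystem I subunit, had 12756, 14309 and 17596 in wild type and 7580.0, 7026 and 7924 in the double mutant (log2 change -0.98 ± 0.15 (SE), adjusted p = 9.85e-05). Both genes showed no overlap between the groups. FD2, the main leaf ferredoxin, and LHCB4.3, of a minor antenna, fell as well (log2 changes -0.86 and -0.96). RBCS1A, a Rubisco small subunit, went from 687612 ± 115325 in wild type to 394959 ± 15771 in the double mutant, and RBCS1B fell with a log2 change of -1.14. RBCS1A did not pass without wild type replicate 3 or double mutant replicate 1 or 2 (adjusted p = 0.0524 to 0.0643). It also did not pass with no filter on low values (0.309). LHCB1 and RBCS genes have near-identical copies between which reads may have been split, and LHCB1.5 was listed at 0 in every library.

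Single libraries weighed on the photosynthesis counts. Without wild type replicate 1, 13 photosystem genes fell, without wild type replicate 3, 8 fell, and without double mutant replicate 1 or 2, 9 fell. Of light-harvesting genes, 6 fell without double mutant replicate 1. The Calvin cycle count did not move by more than 1.5 times. Against djc31, the double mutant was lower in 19 of 19 light-harvesting genes, 27 of 29 photosystem genes and 17 of 20 Calvin cycle genes. In djc31 itself, 9 light-harvesting, 4 photosystem and 1 Calvin cycle genes were higher than in wild type (median log2 changes 0.47, 0.29 and 0.01), and 1, 0 and 1 lower. In djc62, 0 genes of each of these lists were higher than in wild type, and 4, 2 and 4 were lower (medians -0.28, -0.22 and -0.25). Lower in the double mutant than in djc62 were 1, 2 and 5 genes of these lists. Of 85 plastid-encoded loci tested, 0 rose and 17 fell (20%, median log2 change -0.68), beside 13.8% and 15.5% of all loci. Their share of all reads was 0.0426% ± 0.00388 in wild type and 0.0310% ± 0.00140 in the double mutant (2-sided exact permutation test, p = 0.1, the smallest that 3 against 3 libraries can give). The mean share was 0.0356% in djc31 and 0.0256% in djc62, the second below the double mutant.

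Chlorophyll synthesis genes went both ways. Of these, 2 rose and 10 fell of 22 tested (median log2 change -0.33), or 3 and 2 scaled by total reads; 6 fell without wild type replicate 3 or without double mutant replicate 1. PORA (AT5G54190), the protochlorophyllide reductase of dark-grown seedlings, was an exception to the downward members. It had 196, 115 and 114 in wild type and 901, 819 and 1191 in the double mutant (log2 change 2.80 ± 0.29 (SE), adjusted p = 1.83e-06), with every double-mutant library above every wild-type one. The levels in the single mutants were 192 ± 73.6 in djc31 and 98.4 ± 30.9 in djc62. PORB, the reductase that persists in green tissue, rose from 11127 ± 471 in wild type to 16754 ± 2038 in the double mutant. HEMA1, the regulated first enzyme of the pathway, fell (log2 change -0.56, adjusted p = 0.00196, and 0.0861 scaled by total reads), as did CHLG, which attaches the phytol tail.

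**Figure D4:**
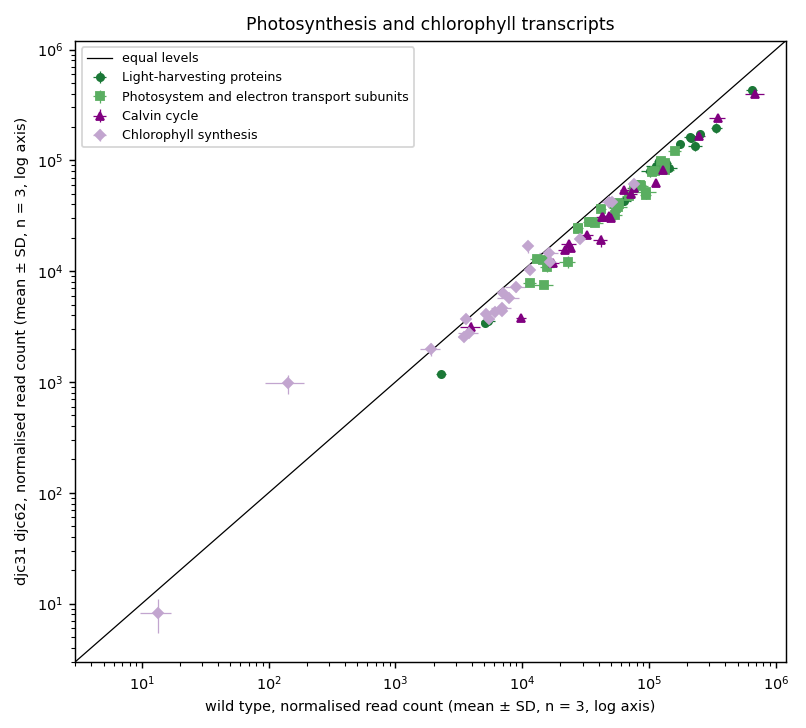
Mean normalised read counts in wild type (x axis) and in the double mutant (y axis), both on log axes with SD bars (n = 3), for light-harvesting, photosystem, Calvin cycle and chlorophyll synthesis genes. Most points lie just under the line of equal levels; the diamond far above it is PORA, from 142 ± 47.3 to 970.2 ± 195.

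Of the enzymes that remove peroxide, 3 rose and 15 fell of 22 tested (median log2 change -0.44), or 5 and 7 scaled by total reads. CAT2 (AT4G35090), the catalase of photorespiring leaf peroxisomes, had 38442, 33701 and 44788 in wild type and 17487, 18973 and 17465 in the double mutant (log2 change -1.11 ± 0.12 (SE), adjusted p = 4.91e-06). CAT3 (AT1G20620), a further catalase, rose, with 14263, 14513 and 13556 in wild type and 34418, 34357 and 36818 in the double mutant (log2 change 1.32 ± 0.11 (SE), adjusted p = 2.29e-07). Neither catalase had overlapping groups. GPX7, GR2, 2CPB and SAPX, peroxide-removing and glutathione enzymes found in plastids, fell, with log2 changes of -1.23, -0.59, -0.69 and -0.60. DHAR1, which regenerates ascorbate, rose from 3075 ± 446 in wild type to 7533 ± 725 in the double mutant (adjusted p = 4.91e-06).

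The copper/zinc superoxide dismutases CSD1 and CSD2 fell. CSD2 (AT2G28190), the plastid form, had 24308, 25076 and 30046 in wild type and 4609, 4775 and 5663 in the double mutant (log2 change -2.40 ± 0.13 (SE), adjusted p = 2.68e-10). CCS, which loads copper into these enzymes, had 4095, 4362 and 4209.9 in wild type and 1229, 1146 and 1467 in the double mutant (log2 change -1.73 ± 0.10 (SE), adjusted p = 1.5e-09). Neither overlapped between the genotypes, and the double mutant was lower than each single mutant (adjusted p = 4.12e-08 against djc31 and 2.09e-07 against djc62 for CSD2). CSD1, the cytosolic form, fell 2.01-fold, and the copper importer COPT2 fell from 356 ± 71.3 in wild type to 115 ± 14.4 in the double mutant. By its locus identifier COPT2 (AT3G46900) lies between AT3G46845 and AT3G47250, which were silent in wild type. FSD1, the iron superoxide dismutase known to replace CSD1 and CSD2 when copper is short, rose from 16429.6 ± 1232 in wild type to 22466 ± 942 in the double mutant (adjusted p = 0.00623). Over the copper list, 5 rose and 10 fell of 27 tested, or 5 and 6 scaled by total reads; 2 or 3 rose when any 1 library of the 2 genotypes was left out. SPL7, the copper-sensing transcription factor, did not pass (log2 change 0.02).

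Ferritins, which store iron, went both ways. FER1 (AT5G01600), a ferritin of leaf plastids, had 7657, 5469 and 7328 in wild type and 3916, 4059 and 3457 in the double mutant (log2 change -0.83 ± 0.12 (SE), adjusted p = 6.67e-05). FER3 and FER4 fell with log2 changes of -0.91 and -0.44, the second not past the threshold scaled by total reads (adjusted p = 0.259). FER2, a ferritin of seeds, rose from 44.6 ± 8.80 in wild type to 83.7 ± 8.97 in the double mutant (adjusted p = 0.0175), but not without wild type replicate 1 or double mutant replicate 1 or 2 (0.0602 to 0.0750). FRO3, a mitochondrial iron reductase, rose from 122 ± 45.2 in wild type to 485 ± 23.2 in the double mutant, with 577 ± 131 in djc31 and 457 ± 53.5 in djc62. The double mutant was lower than both single mutants in FER1 (adjusted p = 8.37e-07 against djc31 and 5.43e-05 against djc62). Of the iron list as a whole, 2 rose and 6 fell of 18 tested, or 6 and 3 scaled by total reads. The root uptake genes IRT1, BHLH39 and BHLH100 had too few reads to be tested.

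Genes of the chaperone system in which DJC31 and DJC62 act changed one by one. Of the cytosolic HSP70 and HSP90 machinery, 7 rose and 2 fell of 28 tested, or 12 and 2 scaled by total reads, and 4 rose without wild type replicate 1 or 2 or without double mutant replicate 2 or 3. HSP90.2 (AT5G56030), a constitutive cytosolic HSP90, had 1257, 1511 and 1796 in wild type and 3652, 4248 and 4118 in the double mutant (log2 change 1.41 ± 0.14 (SE), adjusted p = 8.2e-07). The single mutants had 3212 ± 544 in djc31 and 3843 ± 213 in djc62. By its locus identifier HSP90.2 lies near AT5G56370, which was silent in wild type and read in all 3 mutant genotypes. HSP70-2 (AT5G02490), a cytosolic HSP70, had 218, 234 and 245 in wild type and 544, 673 and 650.2 in the double mutant (log2 change 1.42 ± 0.18 (SE), adjusted p = 1.9e-05). It differed from both single mutants, which had 143 ± 9.21 in djc31 and 176 ± 47.2 in djc62 (adjusted p = 8.05e-07 against djc31 and 2.87e-06 against djc62). HSP70-3 fell from 3602 ± 1157 in wild type to 1916 ± 213 in the double mutant, and SGT1A, a co-chaperone of HSP90 in immunity and hormone signalling, from 1844 ± 132 in wild type to 922 ± 52.4 in the double mutant. HSC70-1, a constitutive cytosolic HSP70, did not pass (log2 change -0.05), nor did the HSP70-HSP90 organising proteins HOP1, HOP2 and HOP3 (0.21, 0.21 and -0.34).

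Heat-inducible chaperones did not move as a group. Of these, 4 rose and 3 fell of 24 tested. In djc31, 2 of the heat list rose and 9 fell against wild type, and in djc62 1 and 10. In the double mutant 10 were higher and 2 lower than in djc31, and 8 and 1 than in djc62. HSP101, the disaggregase, and HSP18.2, a small heat shock protein, did not pass and had log2 changes of -0.41 and -0.04. ROF2, an immunophilin that binds HSP90, rose from 76.3 ± 7.85 in wild type to 161 ± 34.7 in the double mutant, and HSFA1A, a master heat shock factor, from 91.1 ± 17.7 in wild type to 166 ± 15.39 in the double mutant. HSFB2A, a repressor-type factor, fell from 539 ± 178 in wild type to 142 ± 7.07 in the double mutant. In the endoplasmic reticulum folding list, 5 rose and 2 fell of 24 tested, or 14 and 0 scaled by total reads. NAC103 (AT5G64060), a transcription factor of the unfolded protein response, had 56.9, 32.1 and 27.8 in wild type and 149, 149 and 151 in the double mutant (log2 change 1.98 ± 0.32 (SE), adjusted p = 0.000187), without overlap. The chaperones BIP1 and BIP2 and the calnexin CNX1 of this list did not pass (log2 changes 0.23, -0.21 and -0.08).

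Of ethylene genes, 8 rose and 2 fell of 16 tested (median log2 change 0.48), beside 13.8% and 15.5% of all loci. In djc31, 5 of the list rose and 2 fell against wild type, and in djc62 8 and 3. In the double mutant 5 were higher and 2 lower than in djc31, and 4 and 2 than in djc62. EBF2 (AT5G25350), an F-box protein that removes the transcription factor EIN3, had 446, 422 and 277 in wild type and 1486, 1356 and 1502 in the double mutant (log2 change 1.95 ± 0.16 (SE), adjusted p = 8.6e-08). The receptors ERS1, ETR2 and ERS2 rose with log2 changes of 1.09, 1.56 and 1.11, and ETR1, the receptor that is little regulated by the hormone, did not pass (-0.08). ACS6 (AT4G11280), a rate-limiting enzyme of synthesis, had 4394, 2369 and 4460.4 in wild type and 459.9, 556 and 409 in the double mutant (log2 change -2.93 ± 0.20 (SE), adjusted p = 9.3e-09), and ACS11 fell from 623 ± 54.0 in wild type to 103 ± 11.4 in the double mutant. The groups overlapped in none of the genes that rose or fell here. ACS6 was at 326 ± 42.5 in djc31 and 296 ± 21.7 in djc62. By its locus identifier ACS11 (AT4G08040) lies close to AT4G08110, which was silent in wild type. ETR2 was at 95.8 ± 10.6 in djc31 and 78.5 ± 16.9 in djc62, below the double mutant (adjusted p = 0.00284 against djc31 and 0.000606 against djc62).

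The genes of the next sentences were put together after their values were seen, and belong to no single list. XTH22 (AT5G57560), a touch-induced cell wall enzyme, had 16410.4, 15616 and 10941 in wild type and 1640.1, 2192 and 1703 in the double mutant (log2 change -2.95 ± 0.27 (SE), adjusted p = 5.75e-07). ZAT10, a zinc finger repressor, fell from 1009 ± 378 in wild type to 107 ± 8.98 in the double mutant, and CBF2, a cold-induced activator, from 129.5 ± 40.1 in wild type to 14.6 ± 0.634 in the double mutant. JAZ7, WRKY40 and ZAT12, transcriptional regulators induced by wounding, fell too (log2 changes -2.18, -2.03 and -1.68). For XTH22 the single mutants stood at 1195 ± 505 in djc31 and 1689.7 ± 685 in djc62. Of the cold list, 1 rose and 6 fell of 13 tested, or 3 and 5 scaled by total reads.

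Several auxin genes rose. GH3.6 (AT5G54510), an enzyme that conjugates auxin to amino acids, had 935, 1035 and 808 in wild type and 2097, 2304 and 2144 in the double mutant (log2 change 1.24 ± 0.11 (SE), adjusted p = 5.47e-07), and its relative GH3.5 rose 2.89-fold. The single mutants had 929 ± 70.7 in djc31 and 950.0 ± 83.00 in djc62 of GH3.6, and the double mutant differed from both (adjusted p = 1.58e-06 against djc31 and 2.4e-06 against djc62). IAA29, an auxin-induced repressor, rose from 19.7 ± 10.7 in wild type to 185 ± 30.7 in the double mutant, and YUC8, an enzyme of auxin synthesis, from 8.86 ± 3.57 in wild type to 50.3 ± 16.8 in the double mutant. GH3.2 fell from 48.6 ± 6.34 in wild type to 13.6 ± 4.16 in the double mutant. Most of the list did not pass (7 rose and 2 fell of 26 tested), among them the efflux carriers PIN3 and PIN4. NIT2 (AT3G44300), a nitrilase that can turn indole-3-acetonitrile into auxin, had 4.07, 14.5 and 3.48 in wild type and 65.1, 180.1 and 167 in the double mutant.

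Of brassinosteroid genes 6 rose and 0 fell of 23 tested, or 13 and 0 scaled by total reads (3 rose without double mutant replicate 3), with BEE3 and BES1 lowest in adjusted p (log2 changes 0.66 and 0.35), of gibberellin genes 4 rose and 2 fell of 18 tested, or 6 and 1 scaled by total reads, with all 3 GID1 receptors rising, and of cytokinin genes 1 rose and 4 fell of 14 tested, or 3 and 1 scaled by total reads. GID1B went from 88.5 ± 17.8 in wild type to 206 ± 25.4 in the double mutant, and IPT3, an enzyme of cytokinin synthesis, from 585 ± 32.8 in wild type to 271 ± 66.8 in the double mutant. IPT3 was lower than in both single mutants (adjusted p = 0.000103 against djc31 and 0.000174 against djc62). Of jasmonate genes 12 rose and 4 fell of 28 tested. The synthesis genes AOC1 (893 ± 84.6 in wild type to 3062 ± 720.1 in the double mutant) and LOX2 (log2 change 0.92) were among those that rose. In djc62 AOC1 was at 6847 ± 949; against djc62 the double mutant was higher in 1 and lower in 14 of 28. Defence genes went both ways (8 rose and 7 fell of 23 tested, and 4 fell without double mutant replicate 3). PR2, a glucanase, rose from 56.9 ± 21.2 in wild type to 340.2 ± 88.9 in the double mutant, and the transcription factor WRKY70 fell from 1752 ± 429 in wild type to 418 ± 135 in the double mutant.

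At a set of genes the double mutant stood close to wild type while both single mutants did not. PYL6 (AT2G40330), an abscisic acid receptor, had 27.4, 57.8 and 23.2 in wild type and 26.0, 46.1 and 62.8 in the double mutant, against 657, 503 and 634 in djc31 and 589, 368 and 493 in djc62. The wild-type and double-mutant libraries overlapped, and all single-mutant libraries lay far above them (adjusted p = 8.37e-07 against djc31 and 1.99e-06 against djc62). PYL4, a related receptor, had 1881, 2371 and 2113 in wild type and 1833, 1856 and 2052 in the double mutant, with 5481 ± 1689 in djc31 and 4236 ± 761 in djc62. PRODH1 (AT3G30775), the enzyme that breaks down proline, had 842, 1311 and 582 in wild type and 826, 828 and 1778 in the double mutant, with 9333 ± 1587 in djc31 and 5949.9 ± 689 in djc62. The double mutant was lower than both single mutants in PRODH1 (adjusted p = 9.29e-07 against djc31 and 9.08e-06 against djc62). Against wild type, none of these passed the test (adjusted p = 0.476, 0.567 and 0.427 for PYL6, PYL4 and PRODH1), which does not show equal levels. These genes were picked after their values were seen.

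P5CS1 (AT2G39800), which makes proline, went past wild type. It had 4289, 3406 and 3776 in wild type and 7537, 8607 and 6779 in the double mutant (log2 change 0.998 ± 0.17 (SE), adjusted p = 0.000348), against 761, 1411 and 1053 in djc31 and 1298, 1459 and 1667 in djc62. Every double-mutant library was above every wild-type library, and every single-mutant library below. Of the abscisic acid list, 2 rose and 9 fell of 42 tested, or 10 and 4 scaled by total reads. SNRK2.2, a kinase of the pathway, rose from 377 ± 32.1 in wild type to 1414 ± 139 in the double mutant, while CYP707A3, which inactivates the hormone, and the phosphatase gene AHG3 fell (log2 changes -2.27 and -0.99). By its locus identifier SNRK2.2 (AT3G50500) lies close to HR4 (AT3G50480), which was nearly silent in wild type (1.02, 4.82 and 3.48). The dehydrin RAB18 fell from 145 ± 8.97 in wild type to 70.2 ± 17.2 in the double mutant, and RD29A, a drought marker, did not pass (log2 change -0.09) and was at 992 ± 462 in djc31 and 1125 ± 90.25 in djc62.

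Sulfur and flavonoid genes also set the double mutant apart from the single mutants. Of sulfur genes, 1 rose and 0 fell of 19 tested (median log2 change 0.17), or 8 and 0 scaled by total reads, and 12 were higher and 0 lower in the double mutant than in djc31, and 8 and 1 than in djc62. LSU2 (AT5G24660), a small protein induced by sulfur shortage, had 354, 421 and 499.7 in wild type and 502, 482 and 434 in the double mutant, with 91.3 ± 14.4 in djc31 and 70.1 ± 4.26 in djc62. SDI2, which restrains glucosinolate synthesis under that shortage, had 314, 349 and 343 in wild type and 331, 409 and 265 in the double mutant, with 62.6 ± 17.59 in djc31 and 121 ± 25.7 in djc62. In both genes the double-mutant libraries lay above all single-mutant libraries. Of flavonoid genes, 2 rose and 4 fell of 27 tested (median log2 change 0.14), or 11 and 1 scaled by total reads, and 16 were higher and 1 lower in the double mutant than in djc31, and 12 and 1 than in djc62. PAP1, an activator of anthocyanin synthesis, had 104, 93.2 and 186 in wild type and 143, 126 and 87.9 in the double mutant, with 15.5 ± 4.26 in djc31 and 31.8 ± 13.6 in djc62. DFR, a late enzyme of that branch, rose from 1244 ± 99.4 in wild type to 2095 ± 550.1 in the double mutant, and MYBL2, a repressor of it, fell from 2458 ± 329 in wild type to 845 ± 109 in the double mutant (adjusted p = 0.0031 and 3.54e-07).

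**Figure D5:**
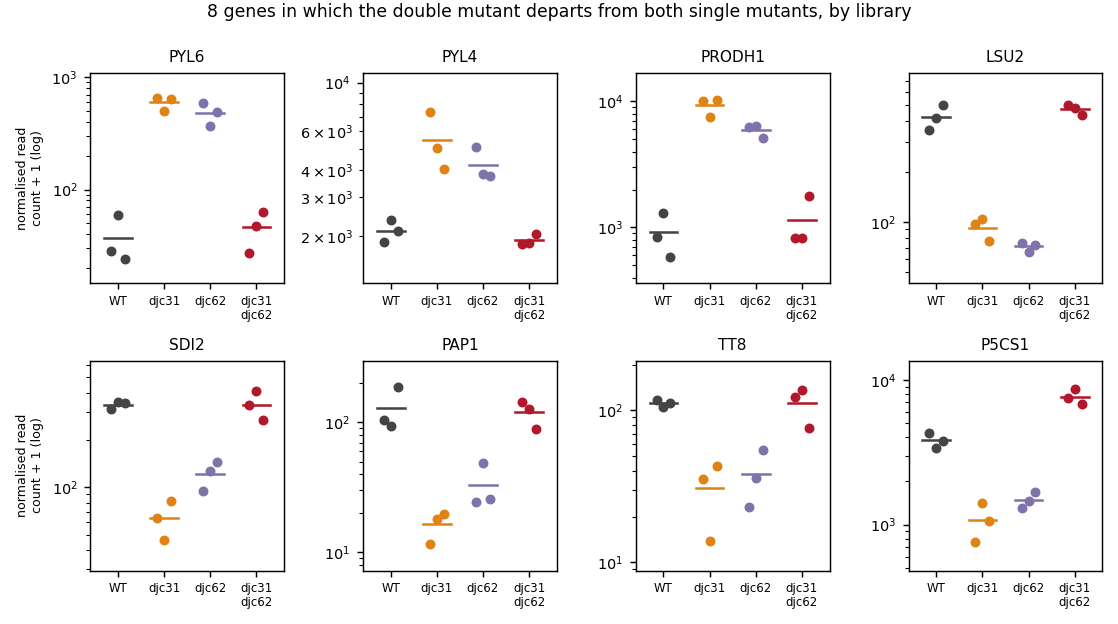
Normalised read count plus 1 (log axis) by library (points) and genotype mean (line) for 8 genes picked for the contrast shown, except P5CS1. In PYL6, PYL4 and PRODH1 the single mutants lie above, and in LSU2, SDI2, PAP1 and TT8 below, both wild type and the double mutant; in P5CS1 the double mutant lies above all.

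Aliphatic glucosinolates, the methionine-derived defence compounds of this family, had higher transcripts of synthesis; 15 rose and 1 fell of 26 tested (median log2 change 0.53), or 23 and 1 scaled by total reads. MYB28 (AT5G61420), the main activator of the branch, had 1705, 1335 and 1479 in wild type and 3372, 3254 and 2842 in the double mutant (log2 change 1.07 ± 0.16 (SE), adjusted p = 7.93e-05). It was at 1177 ± 281 in djc31 and 1586 ± 209 in djc62, and the double mutant exceeded both (adjusted p = 7.06e-06 against djc31 and 0.000281 against djc62). MAM3 and CYP79F1, enzymes of chain elongation and core formation, rose as well (MAM3 from 229 ± 16.2 in wild type to 732 ± 77.7 in the double mutant, and 862 ± 158 in djc62). FMOGS-OX5 was the member that fell. Against wild type, 11 genes of the list rose and 2 fell in djc62, and 1 rose and 10 fell in djc31. In the double mutant 4 were higher and 2 lower than in djc62, and 20 and 1 than in djc31. Of indolic genes, 6 rose and 2 fell of 17 tested, or 12 and 1 scaled by total reads. NSP1, a specifier protein that diverts breakdown to nitriles, rose 2.15-fold, and BGLU18, a glucosidase of endoplasmic reticulum bodies, rose from 4179 ± 307 in wild type to 13006 ± 2442 in the double mutant.

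In primary metabolism, nitrogen genes went both ways (5 rose and 7 fell of 15 tested, and 3 rose without double mutant replicate 3). NIA1 and NIA2, the nitrate reductases, and GLN2, the plastid glutamine synthetase, fell, with log2 changes of -0.64, -0.65 and -0.58. The cytosolic glutamine synthetases GLN1;1 and GLN1;3 rose, GLN1;3 from 706 ± 79.4 in wild type to 1211 ± 50.3 in the double mutant. GLN1;2, also cytosolic, fell (log2 change -0.47). Of the starch list 3 rose and 6 fell of 20 tested, or 8 and 3 scaled by total reads; BAM3, the main leaf beta-amylase, fell from 5872 ± 809 in wild type to 2033 ± 381 in the double mutant, and PHS2, the cytosolic phosphorylase, rose from 671 ± 105 in wild type to 1530.2 ± 142 in the double mutant. DIN6, an asparagine synthetase induced by darkness, had 86.4, 79.5 and 64.9 in wild type and 1100.3, 1173 and 1629 in the double mutant, against 4114 ± 579 in djc31 and 3221 ± 364 in djc62. By its locus identifier it lies between AT3G47250 and HSD3, which were silent in wild type. PHS2 (AT3G46970) lies by identifier between AT3G46845 and AT3G47250, also silent there. Of phosphate starvation genes 0 rose and 5 fell of 17 tested, or 0 and 2 scaled by total reads (2 fell without wild type replicate 1), with the noncoding transcript AT4 at 134, 161 and 151 in wild type and 32.1, 13.4 and 6.69 in the double mutant. In djc31, 0 of the phosphate list rose and 7 fell against wild type, and in djc62 0 and 5.

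More water channels fell than rose. Of aquaporins, 1 rose and 10 fell of 18 tested (median log2 change -0.36), or 3 and 7 scaled by total reads, and 6 fell without wild type replicate 1 or 3. The single mutants were similar: against wild type, 4 rose and 7 fell in djc31 (median -0.32), and 1 and 6 in djc62 (median -0.34). TIP2;2, of the vacuolar membrane, had 5128, 5158 and 6434 in wild type and 2651, 2650.4 and 2924 in the double mutant (log2 change -1.02 ± 0.16 (SE), adjusted p = 0.000136). PIP1;3, of the plasma membrane, rose from 4396 ± 319 in wild type to 9828 ± 889.5 in the double mutant, with 10427 ± 747 in djc31 and 8777 ± 1188 in djc62. Among cell wall genes, EXPA15, an expansin, rose from 374 ± 64.7 in wild type to 774 ± 153 in the double mutant, and the double mutant was above both single mutants (adjusted p = 1.14e-06 against djc31 and 4.29e-06 against djc62), while EXPA11 fell from 1219 ± 49.8 in wild type to 699 ± 71.3 in the double mutant (list: 5 rose and 5 fell of 21 tested, or 7 and 3 scaled by total reads).

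Markers of single cell types gave few calls. Root markers had a summed level of 2286 to 2476 in wild type and 4793 to 5387 in the double mutant, carried by PYK10, a root and hypocotyl beta-glucosidase of endoplasmic reticulum bodies, which rose from 1422 ± 154 in wild type to 4293 ± 333 in the double mutant. The root meristem markers PLT1 and PLT2 were listed at 0 in wild type and the double mutant. Guard cell markers gave 1 rose and 2 fell of 11 tested, or 2 and 1 scaled by total reads, with summed levels of 30318 to 34823 in wild type and 32679 to 36162 in the double mutant, and vascular markers 1 rose and 2 fell of 11 tested, or 3 and 0 scaled by total reads, at 9036 to 9796 and 9146 to 9559.8. TRY, an inhibitor of trichome fate, fell from 163 ± 55.2 in wild type to 21.6 ± 11.5 in the double mutant. The summed epidermal and trichome level was 44438 to 47253 in wild type and 48300.5 to 55003 in the double mutant.

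Some genes departed from both single mutants as well as from wild type. The double mutant passed the threshold against all 3 genotypes, in the same direction, at 641 higher (3.21%) and 686 lower loci (3.43%); the 3 contrasts share its libraries. HA9 (AT1G80660), a plasma membrane proton pump, had 8.13, 1.61 and 1.16 in wild type and 158, 137 and 123 in the double mutant (log2 change 5.23 ± 0.82 (SE), adjusted p = 0.000159), and 0.885 ± 1.53 in djc31 and 0.513 ± 0.889 in djc62. AT5G45990, annotated as a crooked neck-like protein of RNA processing, had 20.3, 22.5 and 9.28 in wild type and 315, 421 and 326 in the double mutant, with 14.9 ± 3.19 in djc31 and 18.7 ± 6.09 in djc62. The RING finger gene AT5G60250 went from 10.7 ± 0.758 in wild type to 348 ± 47.0 in the double mutant. In all of these the 9 other libraries lay below the double mutant. They were picked as large rises beyond both single mutants, so this is no separate finding. AT3G55710, a UDP-glycosyltransferase, fell from 235 ± 16.5 in wild type to 19.4 ± 2.81 in the double mutant, with 203 ± 13.3 in djc31 and 175 ± 34.8 in djc62, and AT3G23510, a cyclopropane fatty acid synthase, from 179 ± 17.64 in wild type to 17.0 ± 6.14 in the double mutant. RAN-1, a small GTPase of nuclear transport, rose from 6153 ± 302 in wild type to 12910.2 ± 605 in the double mutant (log2 change 1.07 ± 0.11 (SE), adjusted p = 1.09e-06), and stood at 6434 ± 649.9 in djc31 and 5879 ± 604 in djc62.

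The largest differences from wild type lay at loci nearly or fully silent there. HSD2, a hydroxysteroid dehydrogenase, had 2.03, 0 and 4.64 in wild type and 2183, 2071 and 2104 in the double mutant, and PLC8, a phospholipase C, had 1.02, 1.61 and 2.32 in wild type and 1025, 1072 and 1043 in the double mutant. Their single-mutant means were 3588 ± 419 in djc31 and 3203 ± 192 in djc62 for HSD2, and 1296 ± 82.3 in djc31 and 1365 ± 46.1 in djc62 for PLC8. Of the 43 loci silent in wild type, 35 had a value of at least 50 in each djc31 library and 35 in each djc62 library. By type, 25 of these loci code for protein, 9 are transposable element genes and 9 are others, with 17 on chromosome 3, 11 on chromosome 5, 10 on chromosome 1, 4 on chromosome 4 and 1 on chromosome 2. The highest, AT3G47250, a gene of unknown function, had no read in wild type (0 in each library) and averaged 1726 in the double mutant, at least 1738-fold higher, taking 3 reads over the 3 wild-type libraries as the floor. AT1G76960 had 0 reads in wild type too, but 671 ± 113 in the double mutant against 157 ± 33.2 in djc31 and 253 ± 132 in djc62. Of 3894 transposable element genes, 154 were tested, of which 36 rose (23.4%) and 20 fell (13.0%), beside 13.8% and 15.5% of all loci. The 9 that were silent in wild type passed the filter only through mutant libraries. The share that rose was therefore partly set by the filter.

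Clock genes differed between the groups, and the labels give no time of day. In djc31, 7 of the clock list rose and 7 fell against wild type, and in djc62 7 and 9. In the double mutant 6 were higher and 5 lower than in djc31, and 0 and 6 than in djc62. LHY, a dawn gene, fell from 3984 ± 298 in wild type to 1705 ± 234 in the double mutant, and TOC1, an evening gene, rose from 254 ± 26.7 in wild type to 406 ± 14.3 in the double mutant; of the list, 4 rose and 8 fell of 23 tested. Among flowering genes (3 rose and 5 fell of 19 tested, or 3 and 3 scaled by total reads, and 3 fell without double mutant replicate 2), CDF3, a repressor of flowering, rose from 680.3 ± 61.5 in wild type to 1879 ± 125 in the double mutant, and SVP and AGL24, of 1 MADS-box subfamily, fell (log2 changes -0.54 and -1.17). CDF3 (AT3G47500) lies by identifier between HSD3 and AT3G47675, which were silent in wild type. Of hypoxia genes, 8 rose and 1 fell of 18 tested (median log2 change 0.45), or 14 and 1 scaled by total reads, and PCO2, a cysteine oxidase of oxygen sensing, had 38.6, 16.1 and 13.9 in wild type and 73.8, 82.6 and 105 in the double mutant, with 19.8 ± 6.27 in djc31 and 22.1 ± 1.46 in djc62. Over the hypoxia list, 8 genes rose in djc31 and 7 in djc62. Their part in, or their dependence on, the other differences was not tested.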

How the data were processed

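RNA of 12 whole-plant samples was sequenced with an Illumina TruSeq kit after Trizol extraction, per the labels' protocols. The submitters' processing notes list Trimmomatic, FastQC, featureCounts and the TAIR10 build, without versions. No source used here gives the aligner or strand setting, so how reads of overlapping, antisense and near-identical genes were divided is unknown. Each locus has 1 deposited signal per library, a count of reads divided by 1 factor per library, and the file headers name DESeq2. Dividing by each library's smallest step gave whole reads for 100% of values within 0.01, in libraries of 13.6 to 31.08 M reads. A count of 0 allows up to 3 reads, a value of 2.23 to 6.45 by library. This limit covers counting error only.

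From these values, limma 3.58.1 (R 4.3.3) with a mean-variance trend was fitted to log2(value + 1) of all 12 libraries, with 1 mean per genotype and 8 residual degrees of freedom; this scale understates changes of low genes. The fit was tested on simulated data. The labels name no batch. Fits with edgeR 4.0.16 and DESeq2 1.42.0 on recovered reads, other scalings, pseudocounts and filters, single libraries left out, and a replicate block were alternatives. Same-numbered replicates of wild type and double mutant did not deviate together, so the numbers were not taken as pairs.

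Gene lists and named genes were chosen with earlier results of these data known. The rule for named genes took both targets, the 10 largest rises and falls without overlap (mean of at least 100 in the higher genotype), the 5 highest on/off loci, up to 6 members per list by adjusted p, the 5 largest gains and losses of reads, and the 5 largest rises and falls beyond both single mutants. List members that did not pass, and members that passed beyond the sixth of their list, such as FSD1, SAPX, PR2 and TPX2, were named after their values were seen. For genes taken by rules that ask for lack of overlap or a level beyond both single mutants, these features were set by the choice. Gene names came from the deposited annotation and the lists. No sequence or genome coordinate was used here. Chromosomes and neighbouring loci were read from locus identifiers and their order. Nearness to on/off loci is given for some named genes only, so others may also lie near such loci.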

Additional observations from a re-analysis of the deposited data

How the results depend on the processing

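The numbers of loci that rose and fell, 2748 and 3091, stayed within 1.5 times under all alternatives but 1. Scaling by total reads gave 5810 and 1431, and 1840 and 458 over 2-fold in place of 1132 and 744. This scaling moved the median of all loci from 0.02 to 0.29. The edgeR test on recovered reads gave 2870 and 3147 and DESeq2 gave 2936 and 3408. Leaving out 1 library in turn gave 1879 to 3148 loci that rose and 2216 to 3465 that fell. With the replicate number as a block, 2594 rose and 2915 fell; same-numbered samples had correlations of deviations of 0.0348, -0.0204 and 0.0250, so this block rests on a shared number only. Without loci within 50 places of an on/off locus, 2294 rose and 2739 fell of 17886. No named gene changed direction with a call. Of 264 named genes, 48 lost their call under at least 1 alternative, 31 of them when 1 library was left out and 27 under total-read scaling; the cause was not tested. With no filter on low values, 4 light-harvesting and 8 photosystem genes fell, and with DESeq2 16 light-harvesting genes fell. Loci with under 10 normalised reads lie near the floor of 3 reads and were not tested.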

Other observations

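The remaining gene lists gave these counts of loci tested. Of 18 darkness and sugar starvation genes tested, 4 rose and 3 fell, or 9 and 1 scaled by total reads; BCAT2, an aminotransferase of branched-chain amino acids, rose from 13.5 ± 9.25 in wild type to 74.9 ± 29.5 in the double mutant, with 97.6 ± 28.0 in djc31 and 78.9 ± 11.6 in djc62. Of 18 genes of senescence and chlorophyll breakdown tested, 1 rose and 4 fell, or 4 and 4 scaled by total reads, and SAG20 and HCAR, a reductase that turns chlorophyll b back toward chlorophyll a, were among those that fell, HCAR from 652 ± 63.2 in wild type to 365 ± 22.8 in the double mutant. The senescence marker SAG12 was listed at 0 in all 12 libraries. Of 9 tested genes of glucosinolate breakdown, 3 rose and 0 fell, or 6 and 0 scaled by total reads. Of 8 plasma membrane proton pumps, 2 rose and 2 fell, or 3 and 0 scaled by total reads; AHA2 rose from 2704 ± 116 in wild type to 3677 ± 407 in the double mutant, and AHA3 fell from 5209 ± 762 in wild type to 3632 ± 152 in the double mutant, a call it lost scaled by total reads. Of the seed and embryo markers 1 could be tested, and the summed level of that list was 16.3 to 39.4 in wild type and 2.98 to 26.8 in the double mutant.

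Outside the protein-coding genes, transposable element genes took 0.0848% ± 0.0128 of reads in wild type and 0.118% ± 0.00737 in the double mutant, with means of 0.0992% in djc31 and 0.104% in djc62 (2-sided exact permutation test of wild type against the double mutant, p = 0.1, the smallest that 3 against 3 libraries can give). Mitochondrion-encoded loci took 0.00750% ± 0.000873 and 0.00811% ± 0.000251 (p = 0.3, exact permutation test).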
